A study of Mus musculus with 32 samples.

Results

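Livers from which Rps6 had been conditionally deleted were compared with livers that kept it, 30 h after partial hepatectomy. Of the 32 livers in the series, 7 were taken at that time. These were 4 Cre minus livers, replicates A to D, and 3 Cre plus livers, replicates A to C, and all were chosen from the labels alone. Every liver came from a male C57BL/6 mouse aged 3 months that was RPS6 homozygous floxed. Cre plus livers also carried the mx-cre transgene, in which an interferon responsive promoter drives the recombinase. To delete the gene, mice were injected with polyinosinic-polycytidylic acid, an artificial RNA duplex that makes cells produce interferon. The controls were floxed too but had no recombinase. The sources used here give neither the interval before surgery nor whether Cre minus mice were injected. The Mx promoter can act in any interferon-responsive cell, so deletion need not be limited to hepatocytes. No sham-operated liver is named in the labels, and the labels do not say that each liver was a different mouse. All p-values therefore measure the spread between these samples, which may be technical.

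Ribosomal protein S6 is a component of the small ribosomal subunit. When assembly of a ribosomal subunit fails, free ribosomal proteins bind Mdm2, the ubiquitin ligase that keeps p53 low. p53 then accumulates and raises its target genes, among them the cyclin-dependent kinase inhibitor Cdkn1a. Partial hepatectomy removes part of the liver, and the hepatocytes that remain leave quiescence, switch on immediate early genes, replicate their DNA and divide. The comparison at 30 h asked how far livers without Rps6 had departed from this course.

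Messenger RNA was measured with a 1-colour Affymetrix array on which biotin-labelled cRNA from total liver RNA was hybridised. Values are the log2 expression values that the authors deposited. A difference is Cre plus minus Cre minus on that scale, adjusted for the 2 array batches named in the labels, PHX2 and PHX3. A probe set was called when its adjusted p in the limma fit over all 32 arrays was under 0.05. Batch PHX3 held Cre minus A and B and Cre plus A, and the others were in PHX2. Albumin was at 13.68 ± 0.11 (SD, n = 4) in Cre minus and 13.76 ± 0.07 (SD, n = 3) in Cre plus livers, near the top of the scale, as the liver label calls for. The difference between the 3′ and 5′ Actb control probe sets, which grows as RNA degrades, was 1.06 ± 0.22 (SD, n = 4) in Cre minus and 0.84 ± 0.04 (SD, n = 3) in Cre plus livers. For Gapdh it was 0.27 ± 0.10 and 0.25 ± 0.05. Cre minus C had the highest value of the compared livers for both controls. For Actb it was at 1.24, and the next liver, Cre minus A, was at 1.17. For Gapdh it was at 0.41, and the next liver, Cre plus C, was at 0.31. Whether RNA quality had a part in the values of Cre minus C was not tested. No pair of arrays was so alike as to be a duplicate, the highest correlation between any arrays being 0.99621.

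The 7 livers did not separate by genotype along the main axis of variation. The first principal component held 51.6% of their variance and placed Cre minus C (24.2), Cre plus B (23.1) and Cre plus C (25.8) opposite Cre minus A (−21.6), B (−21.7) and D (−15.6) and Cre plus A (−14.3). All livers at the high end were from PHX2, and Cre minus D was the PHX2 liver at the low end. The second component held 19.1%, with Cre plus A lowest at −26.2 and Cre minus D highest at 17.0. Cre minus C stood apart from its group: its mean correlation was 0.9446 with the other Cre minus livers and 0.9668 with the Cre plus livers. For Cre plus A the values were 0.9495 with its own group and 0.9614 with the Cre minus livers. Among the genes that moved along the first component, 2 are given as examples, chosen after their values were seen. Pdk4, which restrains pyruvate oxidation, was at 10.87 in Cre minus C and between 5.32 and 6.02 in the other Cre minus livers. G6pc, the catalytic subunit of glucose-6-phosphatase, was at 7.60 in Cre minus C and between 10.34 and 10.82 in the others. Results are given with and without Cre minus C and, where it matters, Cre plus A. Cre minus C was singled out by these same values, so leaving it out widens differences in which it lay on the Cre plus side.

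**Figure D1:**
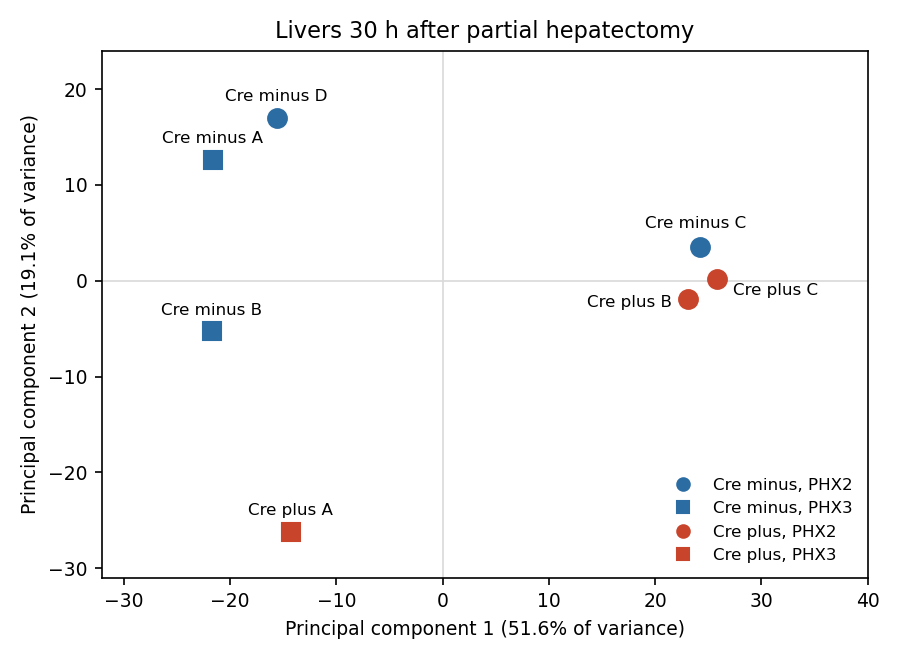
Scores of the 7 livers at 30 h on the first (x axis, 51.6% of variance) and second (y axis, 19.1%) principal components of the tested log2 values, coloured by genotype, with circles for batch PHX2 and squares for PHX3. Cre minus C lies beside Cre plus B and C at the right, and Cre plus A lies at the lower left.

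Rps6 itself separated the groups completely. Its log2 values were 11.51, 11.62, 11.43 and 11.33 in Cre minus A to D and 7.08, 7.08 and 6.51 in Cre plus A to C. Cre minus C thus had the Rps6 level of its label and Cre plus A that of a deleted liver. The difference was −4.55 (SE 0.17, adjusted p = 7.37e-17), which is 23.4-fold lower, with −4.59 within PHX2 and −4.49 within PHX3. This probe set shares its annotation with a pseudogene, Rps6-ps4, and the sources used here do not place it relative to the deleted exons.

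Beyond Rps6, few genes were called at 30 h. Of 9249 probe sets tested, 26 were called (0.281%), 12 of them higher (0.13%) and 14 lower (0.151%) in Cre plus livers. At an unadjusted p under 0.05 there were 1048 (11.3%), and the groups did not overlap for 559 (6.04%). The median difference of all tested probe sets was 0.003, and 50.7% were positive. The called probe sets with a gene of their own were 11 higher and 12 lower, all with the same sign in both batches. A further 2 called probe sets belong to several genes and are not assigned to a gene, 1 higher (1.62) and 1 lower (−1.25). Arrays centred on their medians gave 12 higher and 8 lower calls, and quantile normalization gave 16 and 10.

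**Figure D2:**
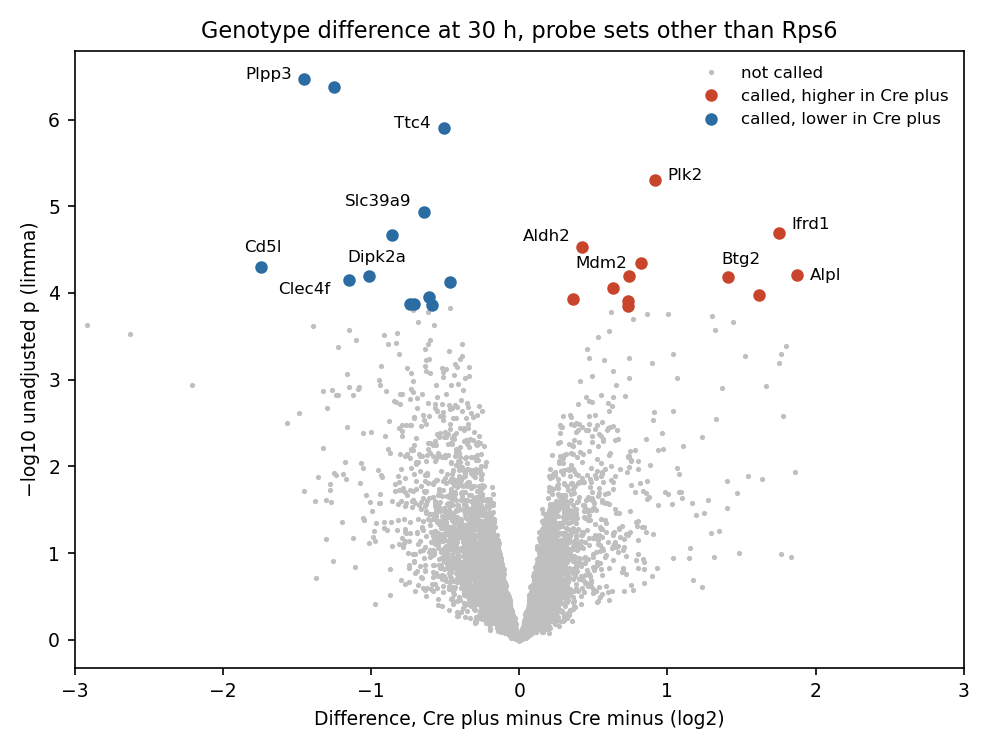
Each point is a tested probe set at 30 h, with its log2 difference (Cre plus minus Cre minus) on the x axis and −log10 of its unadjusted limma p on the y axis, Rps6 left out. Called probe sets are coloured, and reach from 1.88 for Alpl to −1.74 for Cd5l.

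Which genes were called depended strongly on single livers. Without Cre minus C, 266 probe sets were called (2.88%), 133 higher (1.44%) and 133 lower (1.44%), and they kept all 24 named calls made with every liver, Rps6 included. Without Cre minus A 3 of the 24 were kept, without Cre minus B 16, without Cre minus D 5, and omitting Cre plus A, B or C kept 5, 4 or 8. Rps6, Ttc4 and Plpp3 were the named genes called in each of these 7 omissions. All 24 kept their sign in every omission. Of the 26 called probe sets, 22 had the same sign of difference at 0 h, 25 at 20 h and 25 at 40 h, against 51.1, 66.9 and 60.1% of all tested probe sets. In the livers of those times 3, 8 and 15 of the 26 were also called, where 0.0649, 0.292 and 5.35% of all probe sets were.

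**Figure D3:**
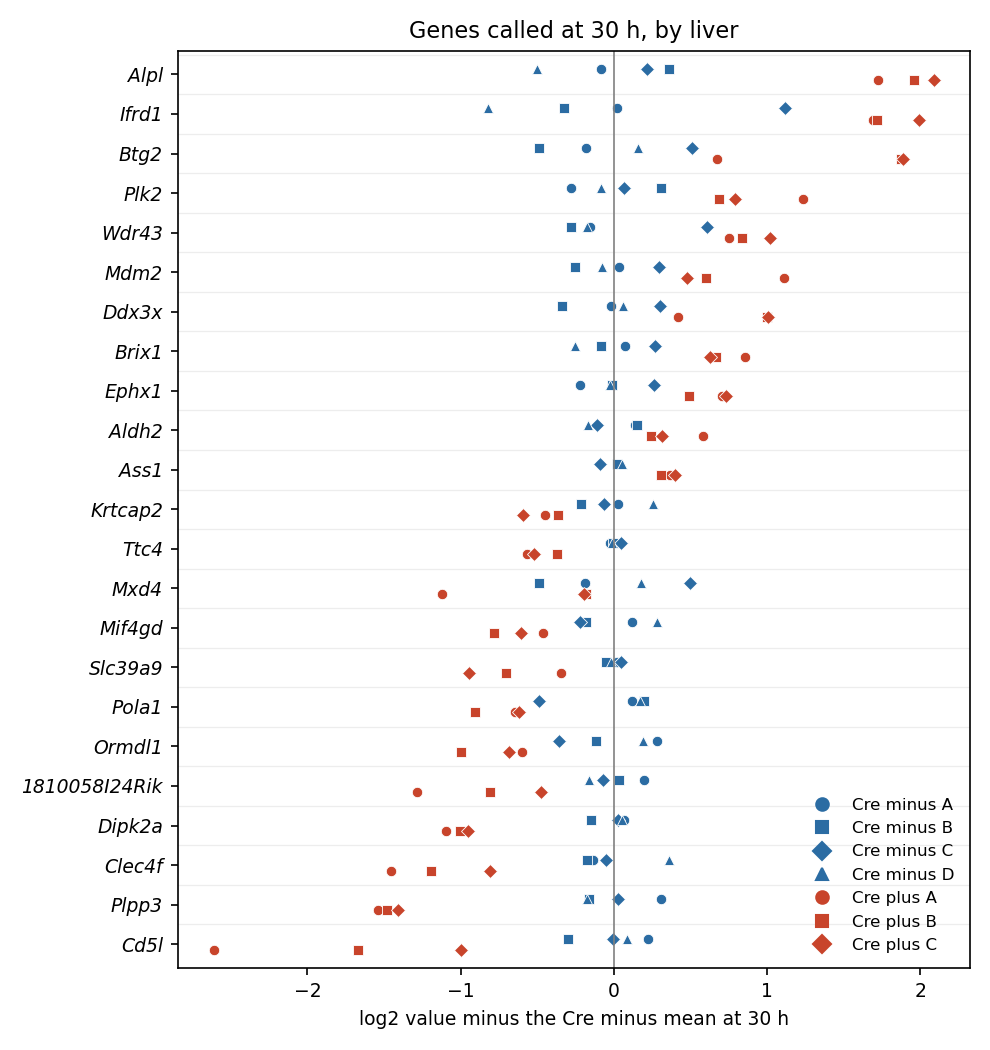
Log2 value of each of the 23 called genes with a probe set of their own, minus the Cre minus mean, in each of the 7 livers. Genes run from the highest to the lowest difference, and in nearly all of them the 3 Cre plus livers lie together on one side, with Mxd4 overlapping.

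Genes that p53 is known to activate were among those higher in Cre plus livers. Of 38 list entries, 24 had an unshared probe set and 22 were tested. Of these, 4 rose (Btg2, Plk2, Mdm2 and Ephx1), none fell and 18 did not pass. Among all probe sets 0.13% rose. The list's median difference was 0.06 against 0.003 for all probe sets, with 13 members positive and 9 negative. Without Cre minus C, 6 rose and 1 fell, where 1.44% of all probe sets rose and 1.44% fell, and the median was 0.09. Leaving out each liver gave medians from 0.03, without Cre plus C, to 0.10, without Cre plus B. At the other times the list's median was 0.20 at 0 h, 0.11 at 20 h and 0.28 at 40 h, each above that at 30 h. Groups did not overlap for 5 members higher in Cre plus and 2 lower, where 2.62% and 3.43% of all probe sets did so.

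Mdm2 had values of 6.43, 6.14, 6.69 and 6.32 in Cre minus A to D and of 7.51, 6.99 and 6.87 in Cre plus A to C. Every Cre plus liver was above every Cre minus liver, Cre plus A most of all. The difference was 0.74 (SE 0.16, adjusted p = 0.0401), with 0.43 within PHX2 and 1.22 within PHX3. It was not called without Cre minus A, B or D or Cre plus A or B (adjusted p 0.0768 to 0.165). Mdm2 differed by 0.62 at 0 h, 0.62 at 20 h and 0.87 at 40 h, where it was called (adjusted p = 1.31e-04).

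Plk2, a polo-like kinase induced by stress, was at 6.88, 7.47, 7.23 and 7.08 in Cre minus A to D. In Cre plus A to C it was at 8.40, 7.85 and 7.96, all above the Cre minus livers. It rose by 0.92 (SE 0.16, adjusted p = 0.00929) and was called in 5 of 7 omissions, with adjusted p = 0.0559 without Cre minus A and 0.0879 without Cre plus A. Btg2, an antiproliferative coregulator of mRNA deadenylation that is also an immediate early gene, was at 8.17, 7.86, 8.86 and 8.51 against 9.03, 10.22 and 10.24. The groups did not overlap, but Cre plus A lay close to Cre minus C. Its difference of 1.41 (SE 0.30, adjusted p = 0.0401) was called without Cre minus C and without Cre plus A, and not in the other 5 omissions (adjusted p 0.0704 to 0.172). Ephx1, the microsomal epoxide hydrolase, was at 10.16, 10.37, 10.64 and 10.36 against 11.09, 10.87 and 11.12. That rise of 0.63 (SE 0.14, adjusted p = 0.0446) also passed at 0 h (0.74), 20 h (0.60) and 40 h (0.63), but at 30 h it passed in no omission other than that of Cre minus C (adjusted p 0.0639 to 0.199 otherwise).

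Cdkn1a, the textbook p53 target, did not pass with all 7 livers. The first of its 2 probe sets was at 6.91, 7.41, 9.51 and 6.42 in Cre minus A to D and at 9.0, 9.40 and 9.66 in Cre plus A to C. Only Cre minus C among the controls reached the Cre plus level. The difference was 1.75 (SE 0.45, adjusted p = 0.0853) and, without Cre minus C, adjusted p was 5.40e-04. In the other omissions it was 0.118 to 0.429. The second Cdkn1a probe set differed by 1.37 (adjusted p = 0.110, 0.00616 without Cre minus C, and 0.107 to 0.470 in the other omissions). The first probe set was also called at 0 h, before regeneration, by 2.13 (adjusted p = 0.0403). It differed by 1.03 at 20 h (adjusted p = 0.838) and by 1.76 at 40 h (adjusted p = 0.00683). The second differed by 0.90 at 0 h, which was not called, and by 1.14 at 40 h (adjusted p = 0.0424). Phlda3, which inhibits Akt at the membrane, differed by 0.74 without overlap (adjusted p = 0.0804, and 0.0547 without Cre minus C). The p53 target Ccng1, a cyclin that binds a phosphatase, differed by 0.34 (adjusted p = 0.713). Zmat3, a zinc finger protein that binds RNA, differed by 0.40 (adjusted p = 0.190, and 0.0271 without Cre minus C). For Zmat3 the other omissions gave an adjusted p of 0.102 to 0.498. Zmat3 was called at 0 h (0.64, adjusted p = 0.0341) and at 40 h (0.73, adjusted p = 1.38e-04). Phlda3 was called at 20 h (0.97, adjusted p = 0.00589) and at 40 h (0.92, adjusted p = 7.11e-04), and Ccng1 at no time. Trp53 itself and Bax had no unshared probe set.

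Promoter sequence is shown for the p53 targets whose values the paragraphs above turn on. Windows run from 250 bases before to 50 after the RefSeq start, in assembly GRCm38.p6, and capitals mark matches to a p53 half-site, searched on both strands. Such a match was in 9 of the 18 tested p53 targets with a window and in 9.55% of all 27025 genes with one. The 9 with a match had a median difference of 0.10 and the 9 without one of 0.09. The match describes letters and does not show binding. The Mdm2 window is chr10:117710709-117711008 (minus strand) and that of Cdkn1a is chr17:29090729-29091028 (plus strand).
Mdm2: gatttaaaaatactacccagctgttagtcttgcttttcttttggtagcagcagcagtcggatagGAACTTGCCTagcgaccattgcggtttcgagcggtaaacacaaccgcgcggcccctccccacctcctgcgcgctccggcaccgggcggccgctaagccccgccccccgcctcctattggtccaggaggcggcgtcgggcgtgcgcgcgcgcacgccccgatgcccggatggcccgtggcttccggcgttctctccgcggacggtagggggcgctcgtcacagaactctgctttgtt
Cdkn1a: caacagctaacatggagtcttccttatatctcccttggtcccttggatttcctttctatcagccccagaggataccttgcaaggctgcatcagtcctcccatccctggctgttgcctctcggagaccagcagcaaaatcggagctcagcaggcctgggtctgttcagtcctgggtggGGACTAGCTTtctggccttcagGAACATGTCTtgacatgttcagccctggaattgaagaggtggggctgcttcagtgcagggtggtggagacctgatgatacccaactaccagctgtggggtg
Btg2 and Plk2 had no match to the half-site there but hold a cyclic AMP response element, TGACGTCA, which reads the same on both strands and was in 2.03% of all genes with a window. It is in capitals in Btg2 (chr1:134079106-134079405 (minus strand)) and Plk2 (chr13:110394794-110395093 (plus strand)).
Btg2: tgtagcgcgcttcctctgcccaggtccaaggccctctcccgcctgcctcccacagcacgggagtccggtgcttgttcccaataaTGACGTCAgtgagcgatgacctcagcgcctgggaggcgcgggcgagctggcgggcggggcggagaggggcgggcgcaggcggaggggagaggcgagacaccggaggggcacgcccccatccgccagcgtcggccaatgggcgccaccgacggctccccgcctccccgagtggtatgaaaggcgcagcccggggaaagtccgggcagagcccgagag
Plk2: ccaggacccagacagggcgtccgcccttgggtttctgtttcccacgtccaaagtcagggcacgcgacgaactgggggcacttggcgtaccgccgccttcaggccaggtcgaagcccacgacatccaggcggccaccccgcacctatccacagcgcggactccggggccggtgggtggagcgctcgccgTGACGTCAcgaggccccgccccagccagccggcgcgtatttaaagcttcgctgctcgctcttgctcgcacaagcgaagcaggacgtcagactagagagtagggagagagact

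Immediate early genes, which hepatocytes switch on within the first hours after the operation, were mostly higher in Cre plus livers at 30 h. Of 30 tested members, 29 were positive, with a median difference of 0.48. Btg2 was the member that rose, 29 did not pass, and 12 were higher at an unadjusted p under 0.05. The groups did not overlap for 8, all higher in Cre plus, where 2.62% of all probe sets did so. Relative to the Cre minus mean, the list's median was −0.13, −0.34, 0.49 and −0.16 in Cre minus A to D and 0.40, 0.46 and 0.53 in Cre plus A to C. Cre minus C was thus at the level of the Cre plus livers. The median difference was 0.34 within PHX2, 0.49 within PHX3 and 0.61 without Cre minus C, and it was 0.02 at 0 h, 0.17 at 20 h and 0.37 at 40 h. Fos, a component of the AP-1 transcription factor, was at 3.81, 3.37, 4.92 and 3.73 against 5.52, 4.76 and 5.61. Its difference was 1.25 (adjusted p = 0.385), and Cre minus C lay above Cre plus B. Btg1, a relative of Btg2, differed by 1.29 (adjusted p = 0.457), and Dusp1, a phosphatase of mitogen-activated protein kinases, by 1.16 (adjusted p = 0.359).

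DNA replication genes were lower in Cre plus livers as a group, although a single member passed. Of 45 tested members 42 were negative, with a median difference of −0.36. Pola1 fell, 44 did not pass, 19 were lower at an unadjusted p under 0.05, and 8 had groups that did not overlap, all lower (3.43% of all probe sets were). Relative to the Cre minus mean, the list's median was 0.00, 0.12, −0.35 and 0.19 in Cre minus A to D and −0.40, −0.37 and −0.44 in Cre plus A to C. Cre minus C lay close to the Cre plus livers, and the other controls lay above them. Relative to the mean of Cre minus livers at 0 h, with no batch adjustment, the same livers were at 0.19, 0.28, −0.19 and 0.32 and at −0.15, −0.14 and −0.17. Cre minus A, B and D were thus above the resting mean of Cre minus livers, and Cre minus C and all Cre plus livers were below it. Cre plus livers were already lower at rest: the list's median genotype difference was −0.15 at 0 h and −0.13 at 20 h. At 0 h Mcm5 differed by −0.58 and Pcna by −0.56, neither of them called. The Cre plus livers at 30 h were therefore not shown to lie below their own resting level. Without Cre minus C the median difference was −0.51 and 18 members fell (1.44% of all probe sets did). Leaving out each liver gave medians from −0.51 to −0.26.

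Pola1, the catalytic subunit of the polymerase that starts each new DNA strand, was at 4.74, 4.82, 4.14 and 4.80 in Cre minus A to D and at 3.98, 3.72 and 4.01 in Cre plus A to C. The groups were separate, with Cre minus C nearest the Cre plus livers. All these values were low, below the array medians, which ran from 5.88 to 5.99. It fell by 0.71 (SE 0.16, adjusted p = 0.0497). At 40 h it fell by 0.92 (adjusted p = 6.92e-05). Of the 7 omissions, that of Cre minus C alone kept the call at 30 h (adjusted p = 0.00397), and the others gave 0.0814 to 0.249. Mcm5, a subunit of the replicative helicase, was at 8.46, 9.30, 7.05 and 9.03 against 6.83, 7.10 and 7.20. Cre minus C fell inside the Cre plus range, and the other controls were higher. The difference was −1.39 (SE 0.33, adjusted p = 0.0576, and 2.04e-04 without Cre minus C), while a second Mcm5 probe set differed by 0.12. For the first probe set the other omissions gave an adjusted p of 0.12 to 0.296. Pcna, the sliding clamp of DNA polymerases, was at 7.42, 7.61, 6.93 and 7.82 against 6.38, 6.74 and 6.58, without overlap. Its difference was −0.89 (adjusted p = 0.0697, and 0.00892 without Cre minus C). Rrm2, the regulated subunit of ribonucleotide reductase, differed by −1.09 (adjusted p = 0.113, and 0.0218 without Cre minus C). Any other omission gave an adjusted p of 0.120 to 0.323 for Pcna and 0.12 to 0.470 for Rrm2. Mcm3, another helicase subunit, differed by −0.91 (adjusted p = 0.0627), and another of its probe sets by −0.56 (adjusted p = 0.222). Fen1, the flap endonuclease, differed by −1.27 (adjusted p = 0.113), with Cre minus C the highest liver at 6.95.

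The promoters of Pola1 and Mcm5 are shown because they hold the letters that E2F factors bind in replication genes. Capitals mark TTTCCCGC, TTTCGCGC, TTTGCCGC or TTTGGCGC on either strand, and overlapping matches run together. Such a match was in 12 of 41 tested replication genes with a window (29.3%), in 1 of 29 mitosis genes (3.45%) and in 2.6% of all genes with a window. Replication genes with a match had a median difference of −0.41 (12 genes) and those without one of −0.35 (29 genes). The windows are chrX:93632106-93632405 (minus strand) for Pola1 and chr8:75109259-75109558 (plus strand) for Mcm5.
Pola1: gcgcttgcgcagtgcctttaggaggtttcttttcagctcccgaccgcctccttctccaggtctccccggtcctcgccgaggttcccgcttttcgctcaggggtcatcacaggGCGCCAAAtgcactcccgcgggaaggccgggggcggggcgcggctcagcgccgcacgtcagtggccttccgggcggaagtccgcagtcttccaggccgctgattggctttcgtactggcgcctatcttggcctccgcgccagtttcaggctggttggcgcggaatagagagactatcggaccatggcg
Mcm5: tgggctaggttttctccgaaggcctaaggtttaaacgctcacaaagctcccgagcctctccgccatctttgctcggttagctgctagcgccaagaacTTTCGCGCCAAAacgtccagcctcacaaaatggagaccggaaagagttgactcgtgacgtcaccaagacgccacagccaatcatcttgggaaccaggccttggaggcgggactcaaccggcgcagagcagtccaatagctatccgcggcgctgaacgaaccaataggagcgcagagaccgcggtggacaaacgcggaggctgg

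Genes of mitosis had smaller differences at 30 h than at 40 h. Of 39 tested members none was called at 30 h, 34 were negative and the median difference was −0.25. An unadjusted p under 0.05 was reached by 15, all lower, and 9 fell without Cre minus C (1.44% of all probe sets did). At 40 h 31 members fell (3.07% of all probe sets did) and the median was −0.88. For replication genes the 40 h median was −0.80, and 32 fell. Cdk1, the kinase that drives entry into mitosis, differed by −0.94 at 30 h (adjusted p = 0.108, and 0.00919 without Cre minus C). Stmn1, which destabilises microtubules, differed by −1.23 (adjusted p = 0.118, and 0.0152 without Cre minus C), and its second probe set by −0.03 (adjusted p = 0.977). The other omissions gave an adjusted p of 0.126 to 0.470 for Cdk1 and 0.0876 to 0.506 for the first Stmn1 probe set. Top2a, which untangles chromosomes, differed by −0.56, the proliferation marker Mki67 by −0.37 and the cyclin Ccna2 by −0.21. Cks2, a partner of Cdk1 picked after its values were seen, went the other way by 0.70 (adjusted p = 0.626).

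The genotype difference at 40 h departed from that at 30 h for 19 probe sets by the interaction test (0.205%), of which 18 were more negative at 40 h (0.195%). Members of the mitosis list made up 10 of these and members of the replication list 2. Cdc20, an activator of the anaphase-promoting complex, had means of 6.43, 6.37, 6.74 and 8.61 in Cre minus livers at 0, 20, 30 and 40 h. In Cre plus livers its means were 6.25, 6.29, 6.34 and 6.37, so the 40 h mean stood out in Cre minus livers and no mean did in Cre plus livers. The 40 h difference exceeded that at 30 h by −1.83 (adjusted p = 0.00149). For Aurka, the spindle pole kinase, the change was −1.64 (adjusted p = 0.00336). Both were called in all 16 omissions of a 30 h or 40 h liver, with the highest adjusted p at 0.0101 and 0.0218. Mad2l1, of the spindle checkpoint, changed by −1.27 (adjusted p = 0.0150), but not without Cre plus B or C of 30 h (highest adjusted p 0.0737). Kif20a, a mitotic kinesin, changed by −1.33 (adjusted p = 0.0271) and was called in 9 of the 16 omissions (highest 0.173). Ccnb2, a B-type cyclin, changed by −1.20 (adjusted p = 0.0451) and was called in 4 of them (highest 0.246). At 40 h 1 of 4 Cre minus livers and 2 of 5 Cre plus livers were in PHX2. Within PHX2 and PHX3 alone the test called 1 and 2 probe sets. A probe set could enter the fit through the 4 Cre minus livers at 40 h alone, since 3 arrays above the filter sufficed. Kif20a, Mad2l1 and Aurka had means of 5.17, 5.81 and 6.19 in that group. In every other group their means were low, at most 3.99, 4.48 and 4.58. Their calls are thus not independent of that choice, although with no filter on low values 22 probe sets were called.

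**Figure D4:**
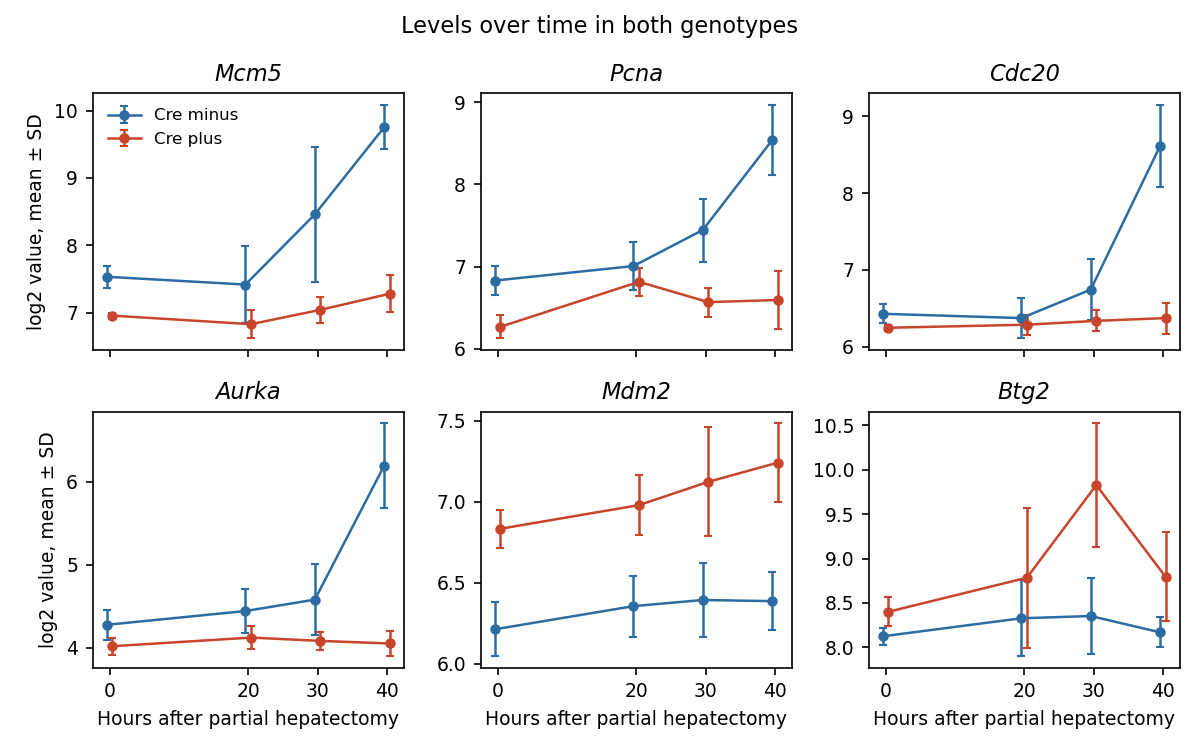
Mean log2 level of Mcm5, Pcna, Cdc20, Aurka, Mdm2 and Btg2 at 0, 20, 30 and 40 h in Cre minus and Cre plus livers, with bars of 1 SD. At 30 h the Cre minus bars of Mcm5 are wide (SD 1.0), and the genotypes are far apart for Cdc20 and Aurka at 40 h.

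Regulators of the G1 phase gave no call. Of 17 tested members the median difference was −0.16, with −0.07 within PHX2 and −0.09 within PHX3. Omitting Cre minus D, Cre plus A or Cre plus C gave −0.08, −0.09 and −0.08. Ccnd1, the cyclin that carries hepatocytes through G1, was at 8.66, 8.53, 6.14 and 8.35 in Cre minus A to D and at 8.79, 6.64 and 6.80 in Cre plus A to C. It followed the first principal component and not genotype, with a difference of −0.42 (adjusted p = 0.847). Its other probe set differed by 0.01. Rbl1, a pocket protein of the retinoblastoma family, differed by −0.61 without overlap (adjusted p = 0.0508). Tfdp1, the dimer partner of E2F factors, differed by −0.90 without overlap (adjusted p = 0.177), and Myc, the growth-promoting transcription factor, by 0.94 (adjusted p = 0.361).

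Of 54 tested ribosome biogenesis factors 41 were positive, the median difference was 0.13, Wdr43 rose and 53 did not pass. The median was 0.001 within PHX2 and 0.27 within PHX3. Wdr43 belongs to the nucleolar complex that processes the RNA of the small subunit, the one that contains S6. It was at 7.02, 6.90, 7.78 and 7.0 in Cre minus A to D and at 7.93, 8.01 and 8.20 in Cre plus A to C. The groups did not overlap, though Cre minus C lay close to Cre plus A. The rise of 0.82 (SE 0.17, adjusted p = 0.0401) was not called in the omissions other than that of Cre minus C (adjusted p 0.0639 to 0.204). Nmd3, an export adaptor of the large subunit, differed by 0.77 without overlap (adjusted p = 0.0538). The list's median per liver was −0.12, −0.14, 0.40 and −0.13 in Cre minus A to D and 0.12, 0.18 and 0.09 in Cre plus A to C, so Cre minus C was the highest liver. Without it the median difference was 0.25 and 8 rose (1.44% of all probe sets did). Without Cre minus B or D or Cre plus A the median was 0.07, 0.05 and 0.06. At 40 h the median was 0.36 and 14 rose (2.28% of all probe sets did). Outside the list, Brix1, an assembly factor of the large subunit, rose by 0.73 at 30 h (SE 0.16, adjusted p = 0.0497) and by 0.68 at 40 h. At 30 h it too was called in no omission other than that of Cre minus C (0.0804 to 0.249).

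Among the listed ribosomal proteins other than S6, which enter by unshared probe sets, none was called. A called probe set that several genes share, lower by 1.25 (adjusted p = 0.00131), has the ribosomal protein paralogue Rpl22l1 among its genes. It was called in all 7 omissions, but its signal cannot be assigned to 1 gene. The 15 tested proteins of the small subunit had a median difference of 0.08 and the 14 of the large subunit one of −0.08. Of 35 tested translation factors and regulators, 1 rose and the median was 0.03. That member was Ifrd1, a transcriptional coregulator and not an initiation or elongation factor. It was at 4.74, 4.39, 5.84 and 3.90 in Cre minus A to D and at 6.41, 6.43 and 6.71 in Cre plus A to C. The Cre plus livers were all higher, and Cre minus C was the nearest control. Its difference of 1.75 (SE 0.34, adjusted p = 0.0251) was not called without Cre minus A or D or any Cre plus liver (adjusted p 0.0559 to 0.163). At 20 h it differed by 1.66 (adjusted p = 0.00793) and at 40 h by 2.04 (adjusted p = 3.74e-05). Eif5, which triggers GTP hydrolysis in initiation, was at 8.31, 8.30, 9.61 and 8.06 against 9.62, 9.67 and 9.47. Cre minus C was at the Cre plus level. The difference was 1.0 (adjusted p = 0.0508, 3.25e-05 without Cre minus C, and 0.0907 to 0.285 in the other omissions). Outside the list, the RNA helicase Ddx3x, which aids initiation, rose by 0.73 (SE 0.16, adjusted p = 0.0497) with every liver included, but not without any liver other than Cre minus C (0.0804 to 0.249).

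**Figure D5:**
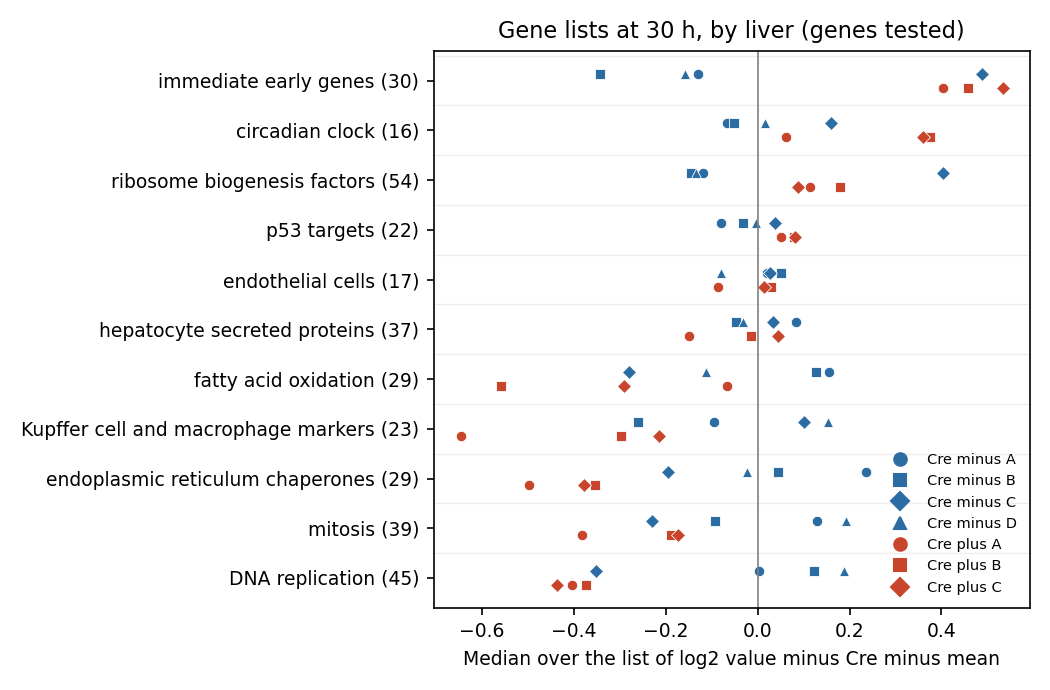
Median log2 value over the tested members of 11 gene lists, relative to the Cre minus mean, in each of the 7 livers. Replication genes lie at −0.40, −0.37 and −0.44 in the Cre plus livers and at −0.35 in Cre minus C, and immediate early genes at 0.40 to 0.53 and at 0.49.

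Markers of Kupffer cells, the resident macrophages of the liver, were lower in Cre plus livers. Of 28 entries 24 had an unshared probe set and 23 were tested. Of these 22 were negative, Cd5l and Clec4f fell (0.151% of all probe sets did), and 21 did not pass. The median difference was −0.31, and 7 members had groups that did not overlap, all lower (3.43% of all probe sets). Cd5l, a protein that macrophages secrete, was at 8.20, 7.68, 7.97 and 8.06 in Cre minus A to D and at 5.36, 6.31 and 6.98 in Cre plus A to C. All Cre plus livers were lower, Cre plus A by the most. It fell by 1.74 (SE 0.36, adjusted p = 0.0401). The call was not made without Cre minus A or D or Cre plus A or B (adjusted p 0.0844 to 0.165). Clec4f, a Kupffer cell lectin, was at 8.42, 8.37, 8.50 and 8.91 against 7.09, 7.36 and 7.74. The groups were well separated, and it fell by 1.15 (SE 0.24, adjusted p = 0.0406), but it was not called without the same 4 livers (adjusted p 0.109 to 0.248). It also fell by 1.51 at 20 h (adjusted p = 7.86e-04) and by 1.43 at 40 h (adjusted p = 5.80e-05).

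The Kupffer list was not uniform. C1qb, a chain of complement C1q, differed by −0.69 (adjusted p = 0.133) and the signalling adaptor Tyrobp by −0.68 (adjusted p = 0.0557). Cd14, the lipopolysaccharide co-receptor, differed by 0.93, with Cre minus C the highest of all livers at 11.32. The log2 of the summed level of the list was 11.81 to 12.78 in Cre minus and 11.55 to 12.08 in Cre plus livers, which overlap, and no tested marker was near the bottom of the scale, the lowest value in any liver being 4.65, for Cybb. At 40 h 10 members fell (3.07% of all probe sets did). The list's median difference was −0.37 at 0 h, −0.48 at 20 h and −0.50 at 40 h. Within PHX2 at 30 h it was −0.31 and within PHX3 −0.53, and leaving out each liver gave −0.42 to −0.21. In whole liver, fewer cells of a type and less RNA per cell cannot be told apart. What part the macrophage share had in the other differences was not tested.

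Markers of the other cell types gave no calls. The median difference was 0.00 for 17 endothelial genes, 0.04 for 22 genes of stellate cells and fibroblasts, −0.12 for 12 of neutrophils, 0.06 for 11 of T and NK cells, 0.05 for 10 of B cells and 0.14 for 8 of cholangiocytes. Of 12 erythroid genes the median was 0.03, but both globins had negative differences. Hba-a1 was at 10.86, 10.13, 10.45 and 11.43 in Cre minus A to D and at 7.32, 8.27 and 8.74 in Cre plus A to C. The groups were far apart, and the difference was −2.63 (SE 0.63, adjusted p = 0.0621). Hbb-b2 differed by −2.21 (adjusted p = 0.108). At 40 h the differences were −3.12 and −3.13 (adjusted p = 5.94e-04 and 3.41e-04). Globin genes have near-identical copies, so the probe sets may read more than the gene they name. The log2 of the summed erythroid level was 11.43 to 12.25 in Cre minus and 10.54 to 11.40 in Cre plus livers.

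Several called genes that fell were outside these lists. Plpp3, a phosphatase that inactivates lysophosphatidate and other lipid signals, was at 7.97, 7.50, 7.69 and 7.49 in Cre minus A to D and at 6.12, 6.18 and 6.25 in Cre plus A to C. The Cre plus livers lay close together and more than 1 unit below every control. It fell by 1.46 (SE 0.21, adjusted p = 0.00132), with −1.37 within PHX2 and −1.61 within PHX3, and each omission kept the call (highest adjusted p 0.0266, without Cre plus A). Ttc4, a co-chaperone, was at 6.34, 6.36, 6.41 and 6.35 against 5.80, 5.99 and 5.84. The controls hardly varied, and Ttc4 fell by 0.51 (SE 0.08, adjusted p = 0.00290) in all omissions too (highest 0.0360, without Cre plus C). With the 30 h arrays fitted alone, Plpp3 was called (adjusted p = 0.0370) and Ttc4 was not (adjusted p = 0.309). Slc39a9, a zinc transporter, fell by 0.64 (SE 0.12, adjusted p = 0.0181), but not without Cre minus A or D or Cre plus B or C (0.0559 to 0.109).

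Other genes fell too. Mxd4, a Max-binding repressor that opposes Myc, was at 8.10, 7.80, 8.78 and 8.47 in Cre minus A to D and at 7.17, 8.11 and 8.10 in Cre plus A to C. It was the called gene whose groups overlapped. It fell by 0.59 (SE 0.13, adjusted p = 0.0497), and its difference at 40 h was higher than that at 30 h by 0.88 (adjusted p = 0.0271), in 11 of 16 omissions. The uncharacterised 1810058I24Rik fell by 0.86 (SE 0.17, adjusted p = 0.0251), but not without Cre minus A or Cre plus A or B (0.0763 to 0.130). Dipk2a fell by 1.02 (SE 0.21, adjusted p = 0.0401, and 0.0370 with the 30 h arrays alone) and differed by −0.03 at 40 h. Ormdl1, a regulator of sphingolipid synthesis, fell by 0.74, and Mif4gd, which aids translation of histone mRNA, by 0.61 (adjusted p = 0.0497 for both). Krtcap2, a subunit of the oligosaccharyltransferase, fell by 0.47 (adjusted p = 0.0406). Mxd4, Dipk2a, Ormdl1, Mif4gd and Krtcap2 were called without Cre minus B or without Cre minus C and in no other omission at 30 h (adjusted p 0.0763 to 0.249 otherwise).

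Of the called genes, the one that rose most was Alpl, tissue-nonspecific alkaline phosphatase. It was at 7.20, 7.65, 7.50 and 6.79 in Cre minus A to D and at 9.01, 9.25 and 9.37 in Cre plus A to C. All Cre plus livers were more than 1 unit above all controls. The difference was 1.88 (SE 0.39, adjusted p = 0.0401), 3.67-fold, with 2.17 within PHX2 and 1.58 within PHX3. It was 0.09 at 0 h, 0.17 at 20 h and 0.93 at 40 h and was not called at those times, and the interaction tests did not call it either. At 30 h it was called without Cre minus B or C and in no other omission (adjusted p 0.0979 to 0.240 otherwise). Ass1, argininosuccinate synthase of the urea cycle, rose by 0.37 (SE 0.08, adjusted p = 0.0497), with 7.11 to 7.25 in Cre minus and 7.51 to 7.60 in Cre plus livers. It was called in no omission but that of Cre minus C (0.0685 to 0.195). Aldh2, the mitochondrial aldehyde dehydrogenase, rose by 0.42 (SE 0.08, adjusted p = 0.0303) and was called without Cre minus B or C and not otherwise (0.0763 to 0.163).

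Chaperones and folding enzymes of the endoplasmic reticulum were lower in Cre plus livers without any call. Of 29 tested members 24 were negative, the median difference was −0.30 and 7 had groups that did not overlap, all lower (3.43% of all probe sets). The list's median per liver was 0.24, 0.05, −0.20 and −0.02 in Cre minus A to D and −0.50, −0.35 and −0.38 in Cre plus A to C. Here Cre minus C stayed above the Cre plus livers. Creld2 differed by −1.33 (adjusted p = 0.204), Dnajb11, a co-chaperone of BiP, by −1.15 (adjusted p = 0.110) and the disulphide isomerase Pdia3 by −0.79 (adjusted p = 0.177). Leaving out each liver gave medians from −0.37 to −0.23, and the median was −0.14 at 0 h, −0.28 at 20 h and −0.20 at 40 h.

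Against livers taken at 0 h, the test of the change in genotype difference called Notch1 alone (0.0108% of probe sets), with 409 at an unadjusted p under 0.05. Notch1, a receptor of cell-to-cell signalling, was at 6.82, 6.88, 6.89 and 6.67 in Cre minus A to D and at 6.76, 6.84 and 6.74 in Cre plus A to C. The groups overlapped at 30 h, where the difference was −0.03, whereas at 0 h it was 0.83 (adjusted p = 4.08e-06). The change was −0.86 (SE 0.14, adjusted p = 0.00839), with −0.67 within PHX2 and −1.07 within PHX3, and it was called in 14 of 15 omissions of a 0 h or 30 h liver (adjusted p = 0.0696 without Cre plus A of 30 h). Against 20 h limma called 0 probe sets, with 194 at an unadjusted p under 0.05.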

How the data were processed

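Total RNA of 32 livers was labelled and hybridised to Affymetrix arrays, and the table holds log2 values that the authors deposited. They come from RMA, per the submitters' processing notes, and the sources used here give neither its version nor whether the batches were processed jointly. Base 2 was taken from the range of the values, 2.30 to 14.12. Of 12422 probe sets other than 66 controls, 10833 had 1 annotated gene, 396 several and 1193 none. Probe sets with several genes were not assigned to a gene, except for Rps6. The fit took the 9249 probe sets that exceeded the 30th percentile of an array on 3 or more arrays. It used lmFit and eBayes of limma 3.58.1 (R 4.3.3), 2-sided, over all 32 arrays. The terms were 8 groups and batch, with Benjamini-Hochberg adjustment at 0.05 within each comparison. The scripts were tested on simulated data. The number of arrays limits the precision.

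Cre plus was compared with Cre minus at 30 h, and that difference with the ones at 0, 20 and 40 h. The members and the 36 gene lists (1138 entries, 765 tested) were chosen with earlier results of these data known. Where a gene had several probe sets, the one of highest mean stood for it in a list. Named were the core genes, called genes with 1 probe set annotation and the same sign in both batches (up to 15 each way), up to 5 members of each list by size of difference, and up to 5 each way per interaction. Of 6 motifs searched in RefSeq promoter windows, 3 are reported. Of 23 called genes with a probe set of their own, 22 had a window. The same letter in both genotypes does not pair livers: deviations from the group means correlated at 0.004, −0.263 and 0.128 for A, B and C at 30 h. Alternatives covered the arrays in the fit, batch, filter, scaling, array weights, single livers left out and the replicate block.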

Additional observations from a re-analysis of the deposited data

Results flagged for a closer look

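Among 204 named genes, 23 had a Cre minus liver at 30 h that lay far from the other 3 by Dixon's test, which chance does for about 1 in 20 groups. Of the 23, 18 were set apart by Cre minus C, 2 by Cre minus B, 2 by Cre minus D and 1 by Cre minus A. Cre minus C was high for Wdr43 (7.78), Eif5 (9.61), Taf1d (7.76), Cd14 (11.32), Psat1 (7.09), Thrsp (10.47), Pdk4 (10.87), Csnk1d (9.69), Btg1 (8.81), Prom1 (5.96), Timp3 (7.74), Car1 (5.77) and Alas2 (9.71). It was low for Pola1 (4.14), Ccnd1 (6.14), Hsd3b7 (9.92), Apob (9.67) and Mmp9 (5.70). The genes for which this liver lay on the side of the Cre plus livers included Pola1, Wdr43, Eif5, Thrsp, Btg1, Cd14 and Pdk4. Cre minus B was high for Rps27l (8.25) and Gp9 (7.94). Cre minus D was low for Manf (9.29) and high for Krt19 (4.78). Cre minus A was low for Cd247 (4.59).

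The genotype difference itself differed between times, by the interaction test, for 7 of the named genes. That of Notch1 was lower at 30 h than at 0 h by −0.86. Between 30 and 40 h the difference moved by −1.83 for Cdc20, −1.64 for Aurka, −1.33 for Kif20a, −1.27 for Mad2l1, −1.20 for Ccnb2 and 0.88 for Mxd4.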

How the results depend on the processing

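The count of 26 called probe sets at 30 h was 4 with 30 h arrays only, 17 without the batch term, 2 within PHX2, 17 without the filter on low values, 16 with trend and robust moderation, 950 when arrays correlating under 0.95 with their group were left out and 2436 with array weights. Leaving out 1 liver gave 4 to 266. With letters as a replicate block it was 2, and the letters are not known to pair livers. The single call against 0 h became 0 within PHX2, within PHX3 and with the replicate block, 184 without low-correlation arrays, 1587 with weights, and 0 to 1 on leaving out a liver. Against 20 h, 0 calls became 1 within PHX3, 1 without low-correlation arrays, 34 with weights, and 0 to 2. The 19 calls between 30 and 40 h became 1 within PHX2, 2 within PHX3, 4 with the replicate block, 7 among probe sets above the array median, 30 after quantile normalization, 353 without low-correlation arrays, 1106 with weights, and 7 to 52. The causes were not tested. No gene called at 30 h changed sign in an alternative that tested it. When a liver was left out, 20 list medians moved by more than the spread between replicates and 232 did not.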

Other observations

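No member of the NRF2, fatty acid oxidation, circadian clock or interferon lists passed the limma test at 30 h, and the lists themselves were not tested. NRF2 targets, which detoxify electrophiles, were positive for 23 of 29 tested members, with a median of 0.15. That median was 0.03 within PHX2 and 0.46 within PHX3, −0.002 without Cre plus A, 0.26 without Cre plus B and 0.23 without Cre minus D. Gsta2, a glutathione transferase, differed by 1.06 (adjusted p = 0.0980) and Gclc, which makes the glutathione precursor, by 0.86 (adjusted p = 0.182). Genes of fatty acid oxidation were negative for 23 of 29, with a median of −0.34. That median was −0.23 within PHX2 and −0.23 within PHX3. Relative to the Cre minus mean, the list's median was 0.16, 0.13, −0.28 and −0.11 in Cre minus A to D. In Cre plus A to C it was −0.07, −0.56 and −0.29, so Cre plus A lay above Cre minus C and D. Circadian clock genes had a median of 0.27 over 16 members, with 0.22 within PHX2, 0.15 within PHX3 and 0.45 without Cre minus C. Rora, a clock nuclear receptor, was at 6.38, 6.38, 6.03 and 6.31 in Cre minus A to D and at 7.23, 7.19 and 7.56 in Cre plus A to C, a difference of 1.04 (adjusted p = 0.0787). The 29 interferon response genes, 14 positive and 15 negative, had a median of −0.01. Mx2 was the member with the largest difference, 1.44 (adjusted p = 0.0557), at 4.35 to 4.96 in Cre minus and 6.05 to 6.33 in Cre plus livers. Glul, glutamine synthetase of the hepatocytes around the central vein, was at 8.37, 8.03, 8.22 and 7.66 against 5.51, 7.20 and 7.40, a difference of −1.33 (adjusted p = 0.115) with −0.64 within PHX2 and −2.69 within PHX3.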
